A study of Capra hircus with 9 samples.

Results

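LOC102169353 and AKAP13 are 2 of the 21664 genes in a transcript-level expression table of the goat submandibular gland, and 24 of its 52739 rows belong to them. Both genes were chosen because transcripts of theirs were among the largest fitted rises or falls between 1-month-old and older goats. The values at 1 month against 12 and 24 months are therefore given as a description, without a test, and only the 2 older ages are compared by tests. The rule took all rows with the gene identifier of LOC102169353, which are 12 RefSeq transcripts, and all rows of AKAP13, which are 8 RefSeq transcripts and 4 new transcripts assembled by the authors. The table describes the product of LOC102169353 as microtubule-actin cross-linking factor 1, the protein that the gene symbol MACF1 stands for.

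Submandibular glands of healthy female Lubo goats raised under the same conditions were collected at 1 month (group A), 12 months (group B) and 24 months (group C), with 3 goats per group. Total RNA depleted of ribosomal RNA was sequenced, 1 library per goat, named here A1 to C3 as in the sample labels. All goats were fasted, kept from liquids for a time and anaesthetized with xylazine hydrochloride before slaughter. No treatment that differed between the groups is named, and age is the only factor that the labels give. Each library is bulk tissue, in which fewer cells of a type and less RNA per cell cannot be told apart.

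MACF1 is a spectraplakin, a very large linker protein that binds both actin filaments and microtubules and takes part in cell migration, polarity and the trafficking of vesicles. Its gene is known for many alternative first exons and internal exons, which give proteins with different ends and different repeat regions. AKAP13, also called AKAP-Lbc, is a scaffold protein that anchors protein kinase A (PKA) and at the same time activates the small GTPase RhoA as a guanine nucleotide exchange factor of the Lbc family. Its transcripts are also known in several forms, and the shorter ones lack part of the scaffold. In secretory glands PKA acts downstream of adrenergic receptors.

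The total expected count per library was 11546808 to 17586065 at 1 month, 18231894 to 21065278 at 12 months and 22040776 to 24901065 at 24 months. Levels are given as counts per 1000000 (CPM) of the library total multiplied by its normalization factor (TMM). This factor was 1.12 to 1.35 at 1 month and 0.82 to 1.03 in the older libraries. On that scale 3 counts correspond to 0.146 to 0.193 CPM. Marker genes of the labelled tissue, of thymus and of other cell types were checked. The 11 salivary acinar and duct markers summed to 561 to 2990 CPM at 1 month, 23400 to 31100 at 12 months and 20600 to 36000 at 24 months. The 11 thymocyte markers summed to 1680 to 11400 CPM at 1 month, 9.28 to 16.1 at 12 months and 22.7 to 26.6 at 24 months. The 4 thymic epithelial markers summed to 69.9 to 684 CPM in group A and to at most 2.53 in the older libraries, where FOXN1, PRSS16 and PSMB11 had no more than 3 counts each. Library A2 held the most thymocyte signal (11400 CPM) and the least salivary signal (561 CPM) of all libraries, and AQP5, the water channel of acinar cells, was at 0.481 CPM there against 130 to 1030 CPM in the others. The 6 B and plasma cell markers summed to 338 to 980 CPM at 1 month, 2460 to 2820 at 12 months and 794 to 1810 at 24 months. The 6 myeloid markers were at 1010 CPM in A3 and at 77.4 to 175 in the other libraries. Myoepithelial and smooth muscle markers (5 genes) were lower in group A, at 79.2 to 612 CPM against 756 to 1090 in the older libraries, while the sums of 3 endothelial genes (178 to 484) and of the 5 skeletal muscle genes found of 7 (1.11 to 40.8) overlapped between the ages. Group A thus carried much thymic and less salivary signal. Every difference between group A and the older groups given here coincides with these marker differences between the groups. The part of the markers in it was not tested.

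Of the 12 transcripts of LOC102169353, 1 was found in every library of group A and in none of the older goats, and 2 showed the opposite pattern. The share of a transcript is its percentage of the expected counts of all transcripts of its gene in the same library. It is not corrected for transcript length, so that it is not a share of molecules. XM_005678666.3 had 947, 1742 and 3456 counts in A1, A2 and A3, and it was at 0 in all 6 older libraries. Its share in group A was 12.6%, 35.2% and 42.1% (30.0% ± 15.4, SD, n = 3). In the older libraries 3 counts would be 0.031% to 0.0367% of the counts of the gene, which is the limit that a count of 0 allows for counting error alone. Reads that match several transcripts were divided among them by an estimate, and the part of that estimate in the counts of 0 was not tested. The groups did not overlap, and within group A the transcript was highest in A3, at 222 CPM against 60.2 in A1 and 88.7 in A2. Of the 3 young libraries A3 had the least thymocyte signal (1680 CPM) and the most myeloid and B and plasma cell signal (1010 and 980 CPM), and the part of these in the level of XM_005678666.3 was not tested.

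XM_018042126.1 was at 0 in the 3 libraries of group A and was the most abundant transcript of the gene in 4 of the 6 older libraries. It took 17.7%, 34.8% and 45.4% of the counts in B1, B2 and B3 (32.6% ± 13.9, n = 3), from 1626, 3256 and 4386 counts. In C1, C2 and C3 it took 20.5%, 50.5% and 55.6% (42.2% ± 19.0, n = 3), from 1910, 4125 and 5117 counts. The lowest older value was in B1, and A was apart from both older groups, whereas B and C overlapped. XM_018042144.1 had at most 0.34 counts in a library of group A, and its share was 16.7%, 17.1% and 14.2% at 12 months and 24.2%, 10.5% and 11.8% at 24 months. Its mean share was thus 16% ± 1.57 at 12 months and 15.5% ± 7.57 at 24 months (n = 3 each), and C1 stood above the other older libraries. Together, XM_018042126.1 and XM_018042144.1 made up 0.0015% of the counts of the gene at 1 month, 48.6% ± 12.9 at 12 months and 57.7% ± 11.7 at 24 months.

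**Figure D1:**
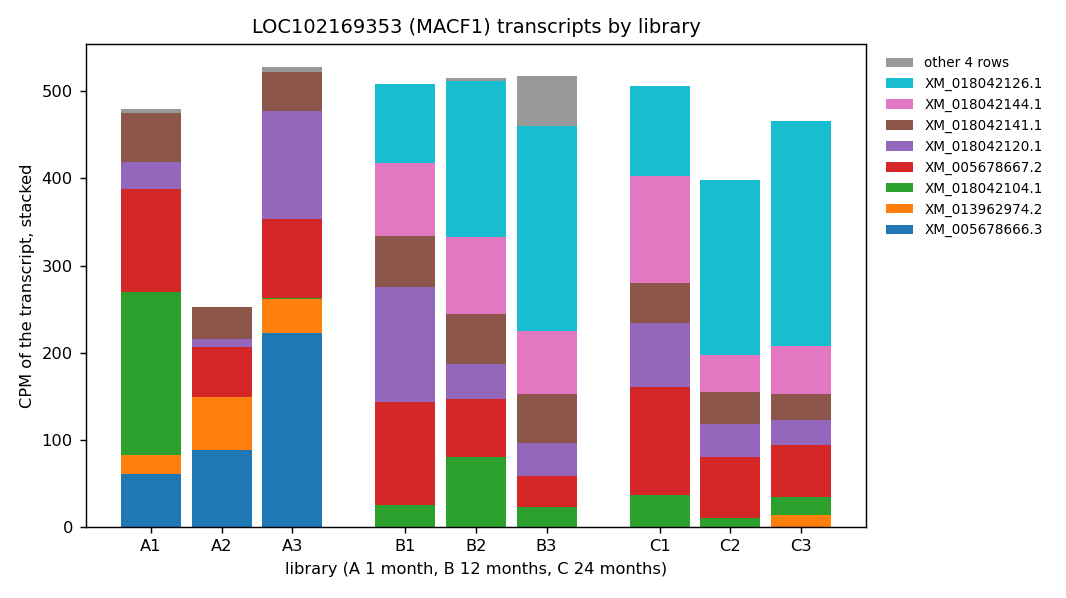
Stacked bars give the CPM of each transcript of LOC102169353 (vertical axis) in each of the 9 libraries (A 1 month, B 12 months, C 24 months), with the 4 transcripts below a mean share of 5% at every age added up in grey. XM_005678666.3, at the foot of the bars, is seen in the 3 libraries of group A and not in the older ones, while XM_018042126.1 and XM_018042144.1, at the top, fill 34.4% to 67.4% of each older bar.

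Another pair of LOC102169353 transcripts was unevenly spread over the goats of one age. XM_013962974.2 had 345, 1189 and 623 counts in A1, A2 and A3, equal to 4.58%, 24.0% and 7.58% of the gene. It was at 0 in group B and had 0.01, 0 and 265 counts in C1, C2 and C3, so that C3 alone among the older libraries held it above 3 counts. With XM_005678666.3 it made up 17.1%, 59.2% and 49.7% of the gene in A1, A2 and A3, and at most 2.88% in an older library. XM_018042104.1, which the table names isoform X1, had 2957 counts in A1, 0 in A2 and 10.6 in A3. That is 39.2%, 0% and 0.129% of the gene, which made it the leading transcript of A1 only. In the older goats it was present throughout, with 444, 1460 and 427 counts at 12 months and 670, 211 and 412 at 24 months, so that A1 lay above and A2 and A3 lay below all older libraries.

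The remaining leading transcripts of LOC102169353 were read in all 9 libraries, and group A overlapped both older groups in the share of each. XM_005678667.2 took 24.5%, 22.5% and 17.2% at 1 month, 23.3%, 12.8% and 6.83% at 12 months and 24.6%, 17.5% and 12.8% at 24 months. XM_018042120.1 took 6.35%, 3.62% and 23.4% at 1 month, 26.0%, 7.98% and 7.44% at 12 months and 14.6%, 9.46% and 6.26% at 24 months. It therefore varied more between goats of one age than between the mean values of the ages, which were 11.1%, 13.8% and 10.1%. XM_018042141.1 took 11.8%, 14.7% and 8.50% at 1 month, 11.4%, 11.1% and 10.7% at 12 months and 9.00%, 9.43% and 6.19% at 24 months, so that every goat of group C lay below every goat of group B. Its level in CPM varied least of the leading transcripts of the gene at each age, with a coefficient of variation (SD over mean) of 21.5%, 2.25% and 22.4%. Summed, these 3 transcripts held 44.2% ± 4.37 of the gene at 1 month, 39.2% ± 19.0 at 12 months and 36.6% ± 11.4 at 24 months. The other 4 transcripts stayed below a mean share of 5% at every age, and XM_018042139.1 was at 0 in all 9 libraries. Their largest value was 11%, from 1068 counts of XM_018042111.1 in B3, against 15.7 counts in B2 and at most 3.03 in any other library.

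The gene as a whole moved far less than its transcripts. The summed level of LOC102169353 was 479, 252 and 528 CPM at 1 month (420 ± 147, n = 3), 508, 515 and 517 CPM at 12 months (513 ± 4.80) and 507, 398 and 466 CPM at 24 months (457 ± 54.8). Group A overlapped both older groups, every goat of group C lay below every goat of group B, and A2, which held the most thymocyte signal, was the lowest library at 0.501 times the mean of A1 and A3. Without A2 the mean of group A was 504 CPM (n = 2). In group B the coefficient of variation was 0.935% for the gene and had a median of 50.5% over the 6 leading transcripts present, each of which varied more than the sum. In group C it was 12.0% for the gene and 50.4% in the median of 7 transcripts, again all above the sum, and in group A 35.1% and 69.9%, with 5 of 7 transcripts above the sum. The authors' counting divides reads that match several transcripts of a gene among them by an estimate, and its part in this spread was not tested.

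A further 3 new transcripts carry the symbol MACF1 and match proteins of LOC102169353, but lie outside the rule because the table lists them under another symbol. TCONS_00007309 matches the same predicted protein, isoform X5, as XM_018042126.1, and it was likewise at 0 in all libraries of group A, with 1570, 104 and 673 counts at 12 months and 620, 1684 and 534 at 24 months. Both X5 transcripts were thus read in each of the 6 older libraries and in none of the 3 young ones. With the 3 new rows added to the gene, the X5 transcripts together took 0% at 1 month, 36.4% ± 8.93 at 12 months and 45.3% ± 18.0 at 24 months (n = 3 each). TCONS_00007311 matches isoform X3 and went the other way, with 89.5, 120 and 114 CPM at 1 month, 18.6, 20.4 and 31.9 at 12 months and 19.9, 13.9 and 27.2 at 24 months. The X3 transcripts accordingly held 21.3% ± 8.70 of the enlarged gene at 1 month, 4.22% ± 1.21 at 12 months and 3.84% ± 1.22 at 24 months, without overlap between group A and the older groups. The X9 transcripts, XM_018042141.1 and TCONS_00007313, held 11.5% ± 2.69, 10.0% ± 0.952 and 7.62% ± 1.00. The summed level of the enlarged gene was 542 ± 139, 581 ± 35.0 and 528 ± 31.3 CPM at the 3 ages, which overlapped.

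In AKAP13, 1 transcript was read in the older goats only, while the largest transcript of group A was read at all ages. TCONS_00061931, a new transcript that matches isoform X4, was at 0 in A1, A2 and A3, where 3 counts would be 0.0217% to 0.0575% of the gene. It had 539, 879 and 790 counts at 12 months and 670, 1841 and 2288 at 24 months. These are shares of 10.4%, 15.8% and 13.9% at 12 months (13.4% ± 2.73, n = 3) and of 11.1%, 21.7% and 19.0% at 24 months (17.3% ± 5.52). B and C overlapped and both were apart from group A. The RefSeq transcript of the same predicted protein, XM_018066005.1, had 60.0, 0 and 0 counts at 1 month, 0 in all of group B and 0.10, 8.14 and 342 counts at 24 months, so that only A1 of the young goats gave reads to isoform X4.

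TCONS_00061929, a new transcript that matches isoform X5, was the largest AKAP13 transcript in all 3 libraries of group A, with 42.0%, 48.6% and 43.6% (44.7% ± 3.43, n = 3). Its share was 25.2%, 33.5% and 27.9% at 12 months (28.9% ± 4.26) and 33.2%, 27.5% and 21.8% at 24 months (27.5% ± 5.72). All older libraries lay below all of group A, yet it still led in 4 of the 6, namely B2, C1, C2 and C3. On the CPM scale its level was 145, 342 and 146 at 1 month, 72.0, 103 and 85 at 12 months and 109, 114 and 133 at 24 months. The RefSeq transcript of isoform X5, XM_018066006.1, had 1959 counts in A2 against 0 in A1 and 3.23 in A3, and was at 0 in every older library. A2 is the library with the most thymocyte signal and the least salivary signal, and this transcript was 14.2% of its AKAP13 counts. XM_018066009.1 was likewise highest in A2, at 108 CPM against 22.4 in A1 and 26.7 in A3, and ranged from 6.51 to 18.4 CPM in the older libraries.

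**Figure D2:**
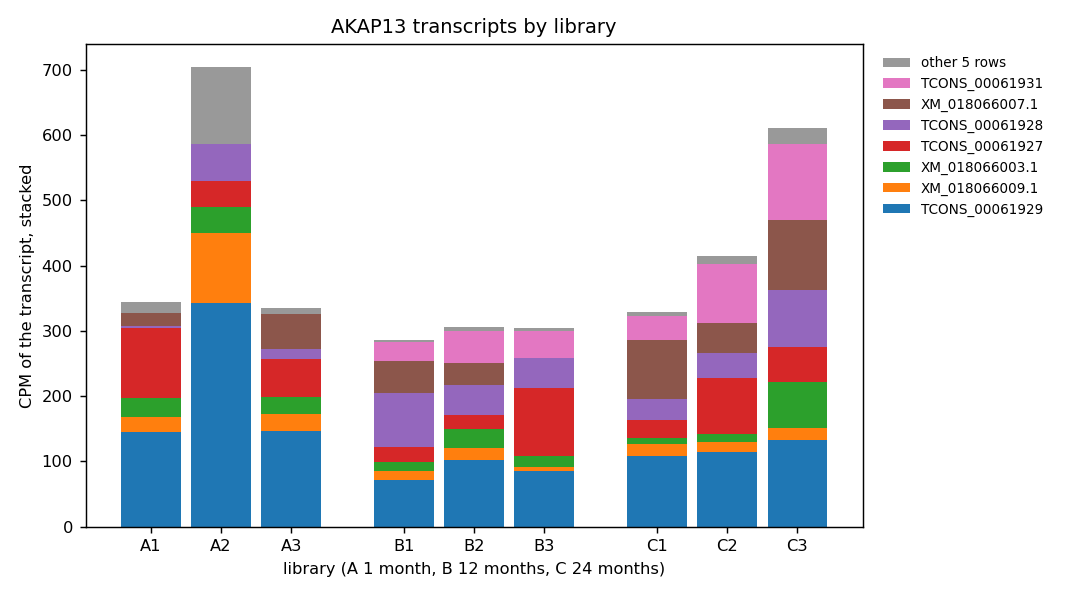
Stacked bars give the CPM of each AKAP13 transcript (vertical axis) in each of the 9 libraries (A 1 month, B 12 months, C 24 months), with the 5 transcripts below a mean share of 5% at every age added up in grey. TCONS_00061931 is absent from the bars of group A and present in all older bars, TCONS_00061929 forms the foot of every bar, and A2 and C3 stand highest at 704 and 610 CPM.

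The 3 transcripts of isoform X6 varied widely from goat to goat at each age. TCONS_00061927 took 31.1%, 5.55% and 17.5% at 1 month, 7.73%, 7.03% and 34.1% at 12 months and 8.70%, 20.6% and 8.73% at 24 months. TCONS_00061928 took 0.814%, 8.15% and 4.47% at 1 month, 29.3%, 15.1% and 14.7% at 12 months and 9.74%, 9.25% and 14.4% at 24 months. XM_018066007.1 took 5.78%, 0% and 15.8% at 1 month, 16.8%, 11% and 0.0805% at 12 months and 27.5%, 11.2% and 17.5% at 24 months. Of the 3, only TCONS_00061928 was higher in every older library than in every library of group A. The last leading transcript, XM_018066003.1, had mean shares of 7.40%, 6.83% and 5.74% with overlapping libraries. The other 5 transcripts were below a mean share of 5% at every age, and XM_018066002.1, which encodes isoform X1, and XM_018066008.1 were at 0 in all 9 libraries.

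Summed by predicted protein, AKAP13 had more of isoform X4 and less of isoform X5 in the older goats. Isoform X4 held 0.369% ± 0.638 at 1 month, 13.4% ± 2.73 at 12 months and 18.2% ± 6.21 at 24 months. Isoform X5 held 49.5% ± 11.5, 28.9% ± 4.26 and 27.5% ± 5.72, and isoform X6 held 29.7% ± 13.9, 45.3% ± 10.8 and 42.5% ± 2.94 (n = 3 each). X4 and X5 did not overlap between group A and the older groups. X6 overlapped between A and B, whereas every goat of group A lay below every goat of group C. X6 was lowest in A2, at 13.7% against 37.7% and 37.8% in A1 and A3. The pairing of RefSeq transcripts with proteins follows their order in the RefSeq gene table, and that of new transcripts follows the protein named in the expression table.

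**Figure D3:**
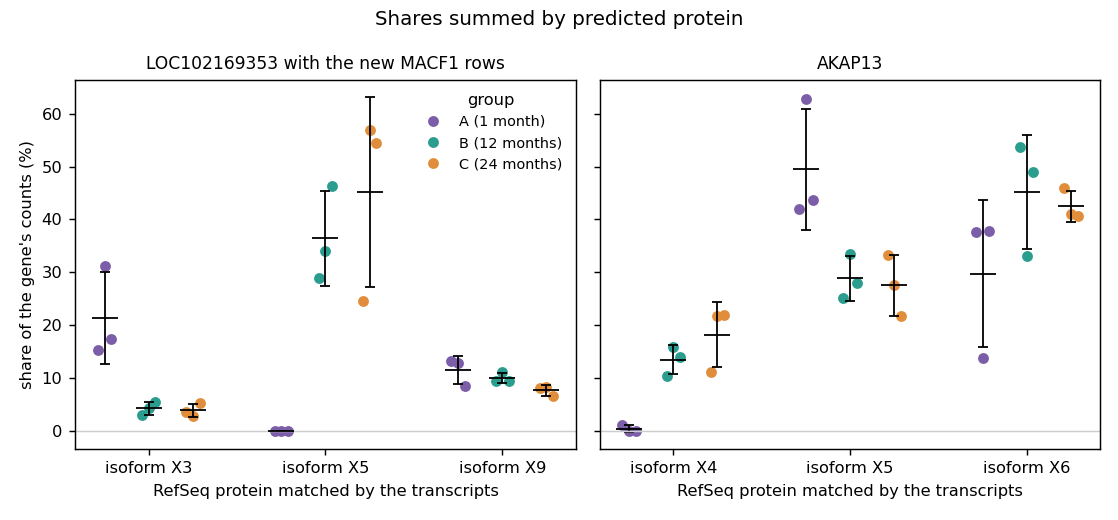
Points give the share of a gene's expected counts (percent, vertical axis) held by all transcripts that match one predicted protein, in each of 3 libraries per group, with bars for the mean and SD, for LOC102169353 with the new MACF1 rows (left) and AKAP13 (right). Isoform X5 of the first gene is at 0% in group A against 24.5% to 56.9% in older libraries, and isoforms X4 and X5 of AKAP13 separate group A from the older groups in opposite directions.

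The summed level of AKAP13 was 345, 704 and 335 CPM at 1 month (462 ± 210, n = 3), 286, 306 and 304 CPM at 12 months (299 ± 10.8) and 328, 414 and 610 CPM at 24 months (451 ± 144). Every goat of group B lay below every goat of groups A and C, and A and C overlapped. A2 stood at 2.07 times the mean of A1 and A3, which was 340 CPM (n = 2), so that A2 was the highest library for AKAP13 and the lowest for LOC102169353. Within group B the gene varied by 3.62% (coefficient of variation) and its 7 leading transcripts by 17.7% to 96.4%, all more than the sum.

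The description of the chosen contrasts by the calls of edgeR is as follows, a call being an adjusted p under 0.05 with a log2 fold change above 2 in either direction. Of the 12 LOC102169353 transcripts 8 passed the filter on low counts in the comparison of A and B, and 4 of them were called, with XM_018042126.1 and XM_018042144.1 higher and XM_005678666.3 and XM_013962974.2 lower in B. Of the 12 AKAP13 transcripts 8 passed, and TCONS_00061931 was called higher. Of all transcripts tested 2.74% were called in that comparison, 0.386% higher and 2.35% lower. Between A and C, 3 of 8 LOC102169353 transcripts were called, the same without XM_013962974.2, and 1 of 8 AKAP13 transcripts, TCONS_00061931 again, against 1.5% of all transcripts, 0.242% higher and 1.26% lower. Since the members were chosen on these contrasts, nothing is read from these counts. Both counts, 5 and 4, were 6 and 3 without A2, where 4.44% and 0.601% of all transcripts were called. By DESeq2 they were the same 5 and 4, where 11.6% and 12.2% of all transcripts were called. Both were 0 when any other library of the pair was left out or the replicate number was a block. In those cases no transcript of the whole table was called.

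Between 12 and 24 months, the comparison that did not enter the choice, no change was called in either gene. B and plasma cell markers (2460 to 2820 against 794 to 1810 CPM) and thymocyte markers (9.28 to 16.1 against 22.7 to 26.6 CPM) did not overlap between these groups, and their part in the values was not tested. The level of LOC102169353 was lower in group C by a log2 fold change of -0.12 (SE 0.216, 95% confidence interval -0.60 to 0.36, adjusted p = 0.768, edgeR quasi-likelihood test). AKAP13 was at 0.64 (SE 0.27, interval 0.04 to 1.25), with an edgeR p of 0.0398 before and 0.429 after Benjamini-Hochberg adjustment over 14289 genes. The AKAP13 value depended on single goats of group C, since it was 0.31 without C3 (adjusted p = 0.873) and 0.83 without C1 (adjusted p = 0.0198), both under the fold change required for a call. By edgeR 0 of 14289 genes were called (0.0%), while 1560 (10.9%) had an unadjusted p under 0.05 and DESeq2 called 13.

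Of the 24 transcripts, 14 passed the filter between groups B and C, and edgeR called 0 of them, with adjusted p-values from 0.864 to 0.969. Before adjustment 1 of the 14 was under 0.05, XM_018042141.1, at a log2 fold change of -0.58 (SE 0.223, interval -1.12 to -0.04), with an edgeR p of 0.038 before and 0.864 after adjustment. Of all 28297 transcripts tested 0 were called (0.0%), 1440 (5.09%) had an unadjusted p under 0.05, and DESeq2 and the exact test of edgeR called 198 and 206, none of them in these genes. The intervals leave room for sizeable differences: that of TCONS_00061931 was -0.05 to 2.11 around 1.03, and that of XM_018042126.1 was -0.93 to 1.30 around 0.19. That of XM_018066007.1 was the widest, from -1.50 to 4.70 around 1.60.

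The use of transcripts within each gene was compared as well. The usage test of edgeR gave an unadjusted p of 0.691 for LOC102169353 and 1 for AKAP13, and an adjusted p of 1 for both, while 1 of 7329 genes was called (0.0136%) and 2.66% had an unadjusted p under 0.05. The p of LOC102169353 depended on single goats and on the filter. Without B1 the edgeR p was 7.09e-05 before and 0.0925 after adjustment, without C1, C2 or C3 it was 0.0213, 0.02 and 0.0195 before and 0.452 to 0.731 after adjustment, and without the filter on low counts it was 0.00256 and 0.593. For AKAP13 limma gave a p of 0.0383 before and 0.548 after adjustment, so that no alternative brought either gene under an adjusted p of 0.05. The gene called was UAP1, named here after its value was seen. On simulated data this usage test called unchanged genes more often than its threshold allows, which leaves a single call weak. By exact two-sided permutation tests of the shares, the smallest p that 3 against 3 libraries allow is 0.1, so that no share could pass 0.05. Of the 15 leading transcripts, 2 had shares that did not overlap between B and C. The same held for 10.1% of all transcripts with a share of at least 5% in some library. The leading transcripts were picked by their mean share at any age, 1 month included, so the rules of the 2 sets differ. Nothing is read from the count of 2. XM_018042141.1 went from 11.1% ± 0.342 to 8.21% ± 1.76, and TCONS_00061928 from 19.7% ± 8.31 to 11.1% ± 2.83 (exact p = 0.1 each, n = 3 per group). For XM_018042126.1 the difference of 9.55 percentage points between C and B was within the spread of the goats (exact p = 0.5).

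The transcript profiles of single goats can be set side by side by the percentage of counts that would have to be moved between transcripts to turn one profile into the other. For LOC102169353 this distance was 50.8 to 78.8 between a goat of group A and one of group B, and 52.9 to 74.5 between A and C. Within the groups it was 27.9 to 49.8 in A, 21.4 to 38.7 in B and 11.1 to 38.0 in C, and between B and C it was 13.8 to 40.7. Every pair of a young and an older goat was thus further apart than any pair of goats of one age, and B and C were no further apart than goats of group A among themselves. For AKAP13 the distance was 28.3 to 50.5 between A and B and 28.1 to 54.7 between A and C, against 16.8 to 36.9 within A, 20.7 to 33.6 within B, 22.5 to 24.6 within C and 16.3 to 36.6 between B and C. These ranges overlapped, so the profiles of AKAP13 did not separate young from older goats pair by pair.

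The same distance between the mean profiles, here called share turnover, places both genes among the 6708 genes with at least 2 transcripts and 50 counts in every library. Between group A and the older groups it was 55.9 percentage points for LOC102169353, exceeded by 59 genes (0.88%), and 33.2 for AKAP13, exceeded by 423 genes (6.31%), with a median of 8.2 over all genes. The rule chose the genes on this contrast, so that their place is a description. The median was higher in genes with a similar number of transcripts. It was 18.8 among the 642 genes with 8 to 16 transcripts, of which 15 (2.34%) exceeded LOC102169353 and 113 (17.6%) exceeded AKAP13. Between 12 and 24 months, which the rule did not use, turnover was 14.5 for LOC102169353 and 14.7 for AKAP13. Larger values were found in 26.8% and 26.3% of all genes, and the median of genes with 8 to 16 transcripts was 15.2.

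**Figure D4:**
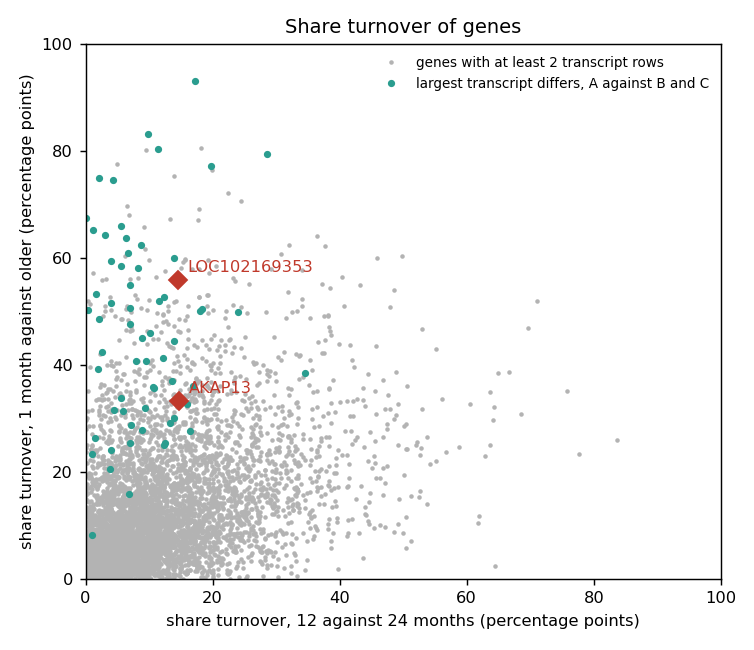
Each point is 1 of 6708 genes, by its share turnover between group B and group C (horizontal axis, percentage points) and between group A and the older groups (vertical axis, percentage points), with the 62 genes whose largest transcript changed in every library in green and both described genes as red diamonds. LOC102169353 lies at 14.5 and 55.9 and AKAP13 at 14.7 and 33.2.

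Neither gene showed a complete switch, defined as 1 transcript leading in all 3 libraries of group A and another leading in all 6 older libraries. In LOC102169353 the leading transcript was XM_018042104.1 in A1 and XM_005678666.3 in A2 and A3, and it was XM_018042120.1 in B1, XM_005678667.2 in C1 and XM_018042126.1 in the other 4 older libraries. In AKAP13 the leading transcript of group A led in most older libraries too. A switch in that sense was found in 62 genes (0.924%). Among those with the largest turnover were CIT, citron kinase (83.2 percentage points), LYST, the lysosomal trafficking regulator (80.4), UBE3D, a ubiquitin ligase (79.5), and DNASE1, a secreted deoxyribonuclease (77.1). In LYST, XM_018042451.1 held 67.3% to 98.1% of the counts at 1 month and 0% to 13.9% in older libraries, where XM_018042448.1 held 74.1% to 94.3% after 0% to 12.9% at 1 month.

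Few of the genes that act with AKAP13 were called in the comparisons with group A. Of 48 listed genes 47 were in the table and 46 were tested. Between A and B, 2 were called, both lower, against 11.7% of all genes called (9.52% lower), and the median log2 fold change of the lists was -0.22, against -0.02 over all genes. Between A and C, 1 was called, lower, against 13.4% of all genes (9.16% lower), with medians of -0.26 and -0.01. The difference in these shares was not tested. Between B and C, edgeR and DESeq2 each called 0 of 45, and in edgeR PRKACA, a catalytic subunit of PKA, had an unadjusted p of 0.0477 and an adjusted p of 0.429.

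The calls were in the Lbc family of guanine nucleotide exchange factors, to which AKAP13 itself belongs. ARHGEF1 had 116, 477 and 115 CPM at 1 month, 34.6, 29.1 and 39.4 at 12 months and 30.0, 49.8 and 67.5 at 24 months. Its log2 fold change was -2.78 from A to B (SE 0.678, adjusted p = 0.0352, edgeR) and -2.18 from A to C (SE 0.703, adjusted p = 0.0654). ARHGEF18, which the table lists as a new transcript only, had 38.6, 211 and 42.9 CPM at 1 month, 1.79, 0.178 and 1.38 at 12 months and 0.37, 3.26 and 1.89 at 24 months. It fell by 6.46 on the log2 scale from A to B (SE 1.16, adjusted p = 0.0157, edgeR) and fell by 5.63 from A to C (SE 1.06, adjusted p = 0.0132, edgeR). Both genes were highest in A2, the library with the most thymocyte signal, and the part of that signal was not tested. Leaving out B1, B2 or B3 left no listed gene called between A and B, leaving out A2 left 1, and between A and C none was left without C3. ARHGEF12, the other member with the most counts, had 169, 20.7 and 152 CPM at 1 month, 312, 279 and 303 at 12 months and 274, 207 and 196 at 24 months, with no call.

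None of the 6 PKA subunits, 6 tested kinases and scaffold partners, 7 genes of the 14-3-3 family and 15 tested other A-kinase anchoring proteins was called by edgeR in any comparison. RHOA, the GTPase that AKAP13 activates, had 270, 681 and 295 CPM at 1 month, 265, 241 and 253 at 12 months and 216, 320 and 303 at 24 months. ARHGDIA, a GDP dissociation inhibitor of small GTPases, had 131, 668 and 220 CPM at 1 month, 136, 123 and 167 at 12 months and 115, 247 and 328 at 24 months. PRKAR1A, a regulatory subunit of PKA, had 129, 318 and 124 CPM at 1 month, 144, 98.8 and 130 at 12 months and 114, 162 and 157 at 24 months. As with AKAP13 itself, A2 was the highest library for all 3 of these genes. The ages overlapped for ARHGDIA and PRKAR1A, whereas every goat of group A lay above every goat of group B for RHOA. PRKAR2A, another regulatory subunit, was lowest in A2, at 74.7 CPM against 99.5 to 177 in the other libraries.

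Further partners differed in how widely they varied. MAPK14, the p38 kinase, ranged from 65.9 to 94.0 CPM over the 9 libraries. YWHAZ, a 14-3-3 protein, had 490, 486 and 389 CPM at 1 month, 357, 323 and 322 at 12 months and 307, 226 and 196 at 24 months, with every young goat above every older one. YWHAE, of the same family, ranged from 305 to 450 CPM at 1 month and from 271 to 446 in the older libraries. AKAP9, an anchoring protein of the centrosome and Golgi, had 232, 86.3 and 203 CPM at 1 month, 332, 403 and 345 at 12 months and 371, 111 and 191 at 24 months, so that B stood above A while C overlapped both. AKAP2 had 441, 620 and 280 CPM in group A against 291 to 434 in the older libraries. An adjusted p under 0.05 without the required fold change was reached by PRKAR2B, a regulatory subunit of PKA, at 1.44 from A to B (SE 0.272, adjusted p = 0.0177, edgeR), by AKAP3 at 1.44 from A to B (SE 0.361, adjusted p = 0.0377, edgeR) and by RHOC at 1.41 from A to C (SE 0.371, adjusted p = 0.0352, edgeR).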

How the data were processed

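The authors removed ribosomal reads with Bowtie2 2.2.8, aligned the rest with TopHat2 2.1.1, assembled transcripts with Cufflinks and deposited RSEM expected counts per transcript, not normalized for depth or length (3.49% of the values above 0 are whole). The genome build is not given in the sources used here. Known rows were named from a RefSeq gene table, which matched 42652 of 42686, and new rows from the symbol in the table. The members and gene lists were chosen with earlier results of these data known. Expected counts were rounded and compared for each pair of ages with edgeR 4.0.16 (R 4.3.3; filterByExpr, TMM, quasi-likelihood test, diffSpliceDGE for usage), with Benjamini-Hochberg adjustment over all features tested, and CPM used TMM sizes of all 9 libraries. Calls required an adjusted p below 0.05 with a log2 fold change beyond 2 in size. The study also used an FPKM threshold, which could not be applied to this table. Shares used unrounded counts, and groups of 3 were compared with exact permutation tests (scipy 1.17.1). The statistics were tested on simulated data, where the usage test exceeded its nominal share of false calls. Named are all rows of both genes, with values in every library where the mean share reached 5% at some age, the 5 switching genes with the largest turnover as far as they can be named, and from each list the called genes or the 2 most abundant, to which genes singled out by an adjusted p under 0.05 or an unadjusted one were added after their values were seen. Alternatives were other normalizations, DESeq2 1.42.0, the exact test, limma 3.58.1, no filter, all libraries in one fit, the replicate number as a block, leaving out each library, pooled counts and other count minimums. Limits for counts of 0 cover counting error only, while intervals and p-values rest on the spread between goats. Results for single genes or lists that are withheld are not reported here.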

Additional observations from a re-analysis of the deposited data

How the results depend on the processing

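Between 12 and 24 months the direction of both gene levels and the absence of calls in both genes held under all alternatives run, with log2 fold changes of -0.19 to -0.04 for LOC102169353 and 0.31 to 0.83 for AKAP13. The 0 transcripts called in the whole table became 198 with DESeq2 and 206 with the exact test. The 1 gene called for usage became 3 with limma and 3 to 30 when a library was left out. Leaving out libraries gave 0 to 2 called partner genes between A and B and 0 to 2 between A and C, where DESeq2 called 3. It gave a turnover of 53.7 to 62.1 for LOC102169353 and 30.9 to 37.4 for AKAP13, and 0.997% to 1.44% of genes with a switch. With the replicate number as a block, 0 genes were called for usage and 0 partner genes between A and B, and the member calls against group A (5 and 4) fell to 0. The labels tie no goats together by number, and the deviations of same-numbered libraries correlated at -0.0839 to -0.0173 between B and C, at -0.0985 to -0.0914 between A and B and at 0.336, 0.141 and -0.176 between A and C, so that no comparison had all 3 pairs above 0.1. Chosen after seeing the data were the rows named MACF1 (turnover 57.9, log2 fold change -0.09), new transcripts assigned by protein accession (0.958% of genes with a switch), the class of 8 to 16 transcripts and the settings for member calls against group A. Of 196 recomputed shares and member counts over 47 results, 184 were counted as unchanged, and the 12 others were the lost member calls. A share was counted as unchanged when it moved by less than the spread. Leaving out 1 of 3 libraries cannot move a mean by its SD, so that this count does not measure stability. The mean share of XM_018042104.1 at 1 month, for example, went from 13.1% to 0.0647% without A1. Shares corrected for transcript length were not run, since no lengths were at hand. Depth limits detection to about 3 counts, or 0.146 to 0.193 CPM.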
